A study of Mus musculus with 8 samples.

Results

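Expression of 7 transcription factors of the innate lymphoid programme was followed in mouse bone marrow progenitors cultured on a Notch ligand: Zbtb16, Nfil3, Rora, Tbx21, Eomes, Tox and Zbtb7b. They were chosen by name, and a gene was measured where the array had a probeset (a set of probes summarised into a single value) listed with exactly that gene. All 7 genes had 1 such probeset, among 19938 genes measured in this way. The arrays came from 3 groups. Wildtype T lineage cells (Tcf7+/+, sorted as Thy1+CD25+) had 2 arrays, Tcf1-deficient lineage-negative (LN) cells (Tcf7-/-, sorted as Mac1-Gr1-Thy1-CD25-) had 3, and wildtype LN cells (Tcf7+/+, the same gate) had 3. All were grown for 4 days from lymphoid primed multipotent progenitors on OP9-DL4 cells, a mouse stromal line that presents a Delta-like Notch ligand, with Flt3L at 5 ng/ml and a second cytokine that the label gives as IL1 at 1 ng/ml, a name not checked against another source. The LN arrays were of 3 mice per genotype, from a line backcrossed for about 6 generations and kept on a mixed background, and the age of the mice is not given in the sources used here. No T lineage cells arose from deficient progenitors, so the T lineage group is of the wildtype alone.

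Innate lymphoid cells, which include natural killer (NK) cells and the helper-like cells of mucosal tissues, arise from the same lymphoid progenitors as T cells but do not rearrange an antigen receptor. Nfil3, Tox and Zbtb16 act in their early precursors, while Tbx21, Eomes and Rora act in their mature branches. Several of these genes, with Zbtb7b, are also used by T cells later in the thymus, and Tcf1, the factor encoded by Tcf7, acts in the early precursors of both lineages.

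Of the 7 factors, Zbtb16 and Tox were about 2-fold higher in T lineage cells than in LN cells of either genotype, and Nfil3 and Zbtb7b were lower in T lineage than in wildtype LN cells. Rora, Tbx21 and Eomes did not pass the test in any comparison. Between the LN groups no factor passed, and Nfil3 had the largest difference, lying lower in all 3 deficient arrays than in any wildtype LN array. The arrays of these groups also did not overlap for 9.95% of all probesets. A factor was called where the adjusted p of limma, a linear model fitted across all 21789 probesets with exactly 1 gene and adjusted over them by Benjamini-Hochberg, was under 0.05. Values are log2 values after RMA (robust multi-array averaging), so that a difference of 1 is a 2-fold change, and the levels of different genes cannot be set against each other.

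The promoters of the pair of factors that fell in T lineage cells are shown, as the stretch from 250 bases before to 50 bases after a transcript start in RefSeq (build GRCm38.p6), on the strand of the gene. That of Nfil3 lies at chr13:52980990-52981289 on the minus strand, inside the gene span of chr13:52967209-52982878, which reaches further upstream. The upstream one of 2 listed for Zbtb7b lies at chr3:89393329-89393628 on the minus strand. Capitals mark the motifs found.
Nfil3: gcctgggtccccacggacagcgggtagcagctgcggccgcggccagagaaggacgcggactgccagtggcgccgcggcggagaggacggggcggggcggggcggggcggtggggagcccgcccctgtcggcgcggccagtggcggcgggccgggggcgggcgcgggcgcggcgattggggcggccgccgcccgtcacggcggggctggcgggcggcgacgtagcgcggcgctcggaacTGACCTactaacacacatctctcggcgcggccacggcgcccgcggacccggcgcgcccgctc
Zbtb7b: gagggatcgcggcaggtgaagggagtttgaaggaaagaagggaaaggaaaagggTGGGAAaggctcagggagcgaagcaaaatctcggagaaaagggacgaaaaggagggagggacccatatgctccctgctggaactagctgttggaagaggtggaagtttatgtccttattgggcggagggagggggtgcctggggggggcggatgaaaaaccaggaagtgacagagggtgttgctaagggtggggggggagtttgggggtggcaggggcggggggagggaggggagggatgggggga

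Promoters were listed for 5 of the 7 factors (Nfil3, Rora, Tbx21, Eomes and Zbtb7b) and were searched on both strands for 6 short motifs that did not overlap each other where found. The Nfil3 promoter held TGACCT, the reverse complement of the ROR core AGGTCA, with its first base at -12 from the start; 16.3% of the 32851 promoters of the table hold this core. The Zbtb7b promoter held TGGGAA, the core read by the Notch partner RBPJ, at -196, as 25.6% of all promoters do, and Rora held it at 8 and Tbx21 its reverse complement, TTCCCA, at -177. No match was found in these windows to the TCF/LEF core CTTTGA (16.0% of all promoters), the GATA core AGATAA (11.2%), the NFIL3 site TTANGTAA (2.32%) or the T-box core TCACAC (14.5%). The window of Eomes and the second one of Zbtb7b held none of the motifs. A match is a run of letters and not a measured binding site.

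Within a group, pairs of arrays had a correlation over all tested probesets between 0.995 and 0.997, a value over features that are not replicates. Pairs from different groups had 0.9729 to 0.9965, the highest being between deficient and wildtype LN arrays, so the ranges overlap. Tcf7 itself was not analysed here, and the genotypes rest on the labels. The gates were checked by their own genes. Thy1 averaged 12.20 in T lineage, 8.48 in deficient LN and 8.46 in wildtype LN cells, and Il2ra (CD25) averaged 12.23, 5.95 and 6.97 in these groups. No marker specific to dendritic, B or NK cells is named in the LN gate, so the label does not state that such cells were excluded. The mean level of 14 dendritic cell markers was 6.45 to 6.57 in T lineage arrays, 9.21 to 9.43 in deficient LN arrays and 9.37 to 9.63 in wildtype LN arrays. For 14 granulocyte and monocyte markers it was 6.75 to 6.99 in T lineage, 8.44 to 8.50 in deficient LN and 8.37 to 8.92 in wildtype LN arrays. For 9 mast cell and basophil markers it was 7.17 to 7.18 in T lineage, 6.63 to 7.03 in deficient LN and 6.69 to 6.90 in wildtype LN arrays. Of these 9 genes, Cpa3 (2.39) and Kit (0.58) alone were called between T lineage and wildtype LN cells, and 7 did not pass. Over all probesets 18.0% were called there. The part of dendritic, granulocyte, monocyte, mast or basophil cells in the differences between T lineage and LN cells was not tested. This holds for the 7 factors and for the gene lists described below. In sorted bulk cells fewer cells of a type and less RNA per cell cannot be told apart.

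**Figure D1:**
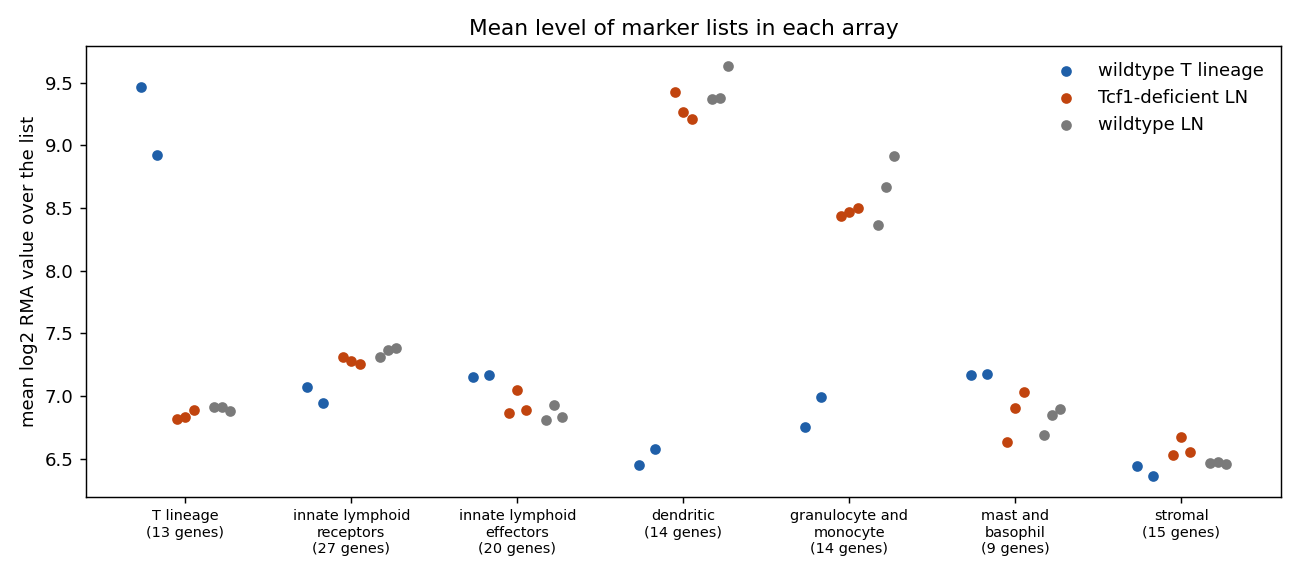
Mean log2 RMA value of 7 marker lists (vertical axis) in each array, with wildtype T lineage, Tcf1-deficient LN and wildtype LN arrays from left to right within each list. The mean of the T lineage markers, which include the sort genes Thy1 and Il2ra, was highest in the T lineage arrays. The means of the dendritic and of the granulocyte and monocyte markers were higher in LN arrays of both genotypes. Of 14 granulocyte and monocyte markers, 8 fell in T lineage against wildtype LN cells and 6 did not pass, beside 10.4% of all probesets called lower.

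Among the factors of early innate lymphoid precursors, Zbtb16 encodes PLZF, a BTB zinc finger protein that marks the innate lymphoid precursor and is needed by NKT cells. The gene lies at chr9:48651797-48836225 (GRCm38.p6). Its log2 value was 7.61 and 7.69 in T lineage arrays, against 6.14, 6.70 and 6.49 in deficient LN arrays and 6.66, 6.58 and 6.43 in wildtype LN arrays. Both T lineage arrays were above all 6 LN arrays, and the LN genotypes overlapped. Zbtb16 rose by 1.09 (SE 0.14, 2.13-fold, limma adjusted p = 0.000318) in T lineage against wildtype LN cells. Against deficient LN cells it rose by 1.20 (SE 0.14, 2.30-fold, limma adjusted p = 0.000192). These 2 comparisons share the T lineage arrays.

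Tox, an HMG box protein needed for innate lymphoid precursors and for CD4 T cell development in mice, had the same order of groups. The gene lies at chr4:6686353-6991557. Its log2 value was 9.92 and 9.85 in T lineage arrays, against 8.26, 8.58 and 8.99 in deficient LN arrays and 8.68, 8.85 and 8.90 in wildtype LN arrays. Every LN array was below both T lineage arrays, and the deficient arrays spread over the range of the wildtype ones and beyond it on both sides. Tox rose by 1.07 (SE 0.17, 2.10-fold, limma adjusted p = 0.00117) against wildtype LN cells and by 1.27 (SE 0.17, 2.42-fold, limma adjusted p = 0.000471) against deficient LN cells. Leaving out deficient array 1, the lowest of its group, gave a difference of 1.10 from deficient cells, and leaving out array 3, the highest, gave 1.47.

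Nfil3 (E4BP4) is a basic leucine zipper factor that mice need to form innate lymphoid precursors and NK cells, and it also takes part in the circadian clock. The gene lies at chr13:52967209-52982878. Its log2 value was 7.90 and 8.18 in T lineage arrays, against 8.27, 8.45 and 8.29 in deficient LN arrays and 8.74, 8.84 and 8.74 in wildtype LN arrays. The 3 groups did not overlap, with wildtype LN arrays highest, deficient LN arrays between and T lineage arrays lowest. Over all probesets 9.95% did not overlap between the LN groups. T lineage arrays did not overlap with deficient LN arrays for 40.7% and with wildtype LN arrays for 47.8%. The share that separates all 3 groups was not computed. Nfil3 fell by 0.73 in T lineage against wildtype LN cells (SE 0.10, 1.66-fold, limma adjusted p = 0.000431). The neighbouring steps of this order did not pass. T lineage minus deficient LN cells was -0.29 (SE 0.10, limma adjusted p = 0.0768), which was called without T lineage array 2 (-0.43, limma adjusted p = 0.0314) and was -0.16 without T lineage array 1 (limma adjusted p = 0.503). With 1 T lineage array left, that array is assumed to vary like the LN arrays, which alone give the spread. Deficient minus wildtype LN cells was -0.44 (SE 0.09, limma adjusted p = 0.365).

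**Figure D2:**
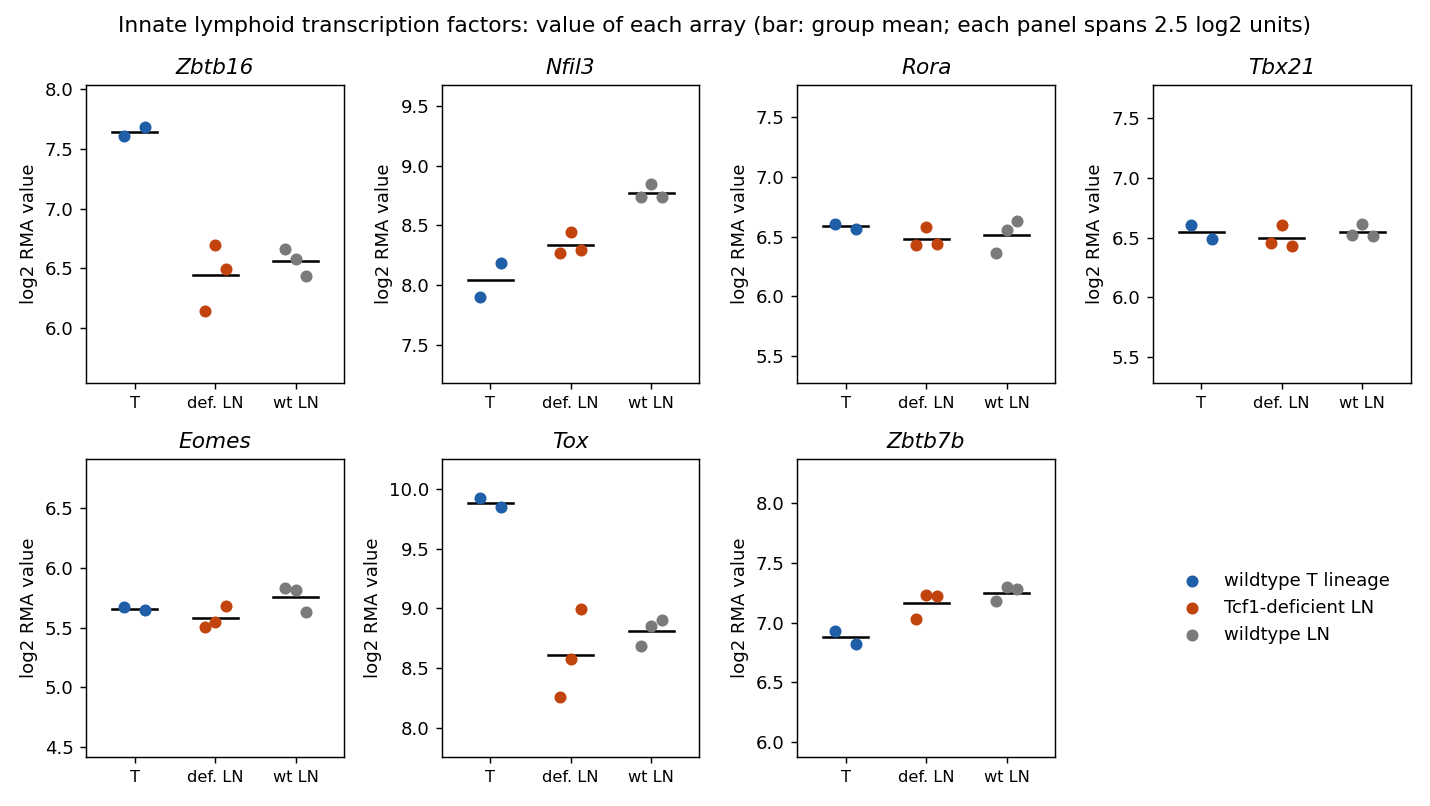
Log2 RMA value (vertical axis, each panel spanning 2.5 log2 units) of the 7 factors in each of the 8 arrays, with wildtype T lineage (T), Tcf1-deficient LN (def. LN) and wildtype LN (wt LN) cells from left to right. Points are arrays and bars group means. Zbtb16 and Tox stood above all LN arrays in both T lineage arrays. The 3 groups did not overlap for Nfil3, but its only called difference was between T lineage and wildtype LN cells. Rora, Tbx21 and Eomes stayed within 0.32 log2 units over all arrays.

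Zbtb7b encodes ThPOK, a BTB zinc finger protein that directs thymocytes to the CD4 lineage and acts in NKT cells. The gene lies at chr3:89377644-89393673. Its log2 value was 6.93 and 6.82 in T lineage arrays, against 7.03, 7.24 and 7.22 in deficient LN arrays and 7.18, 7.30 and 7.28 in wildtype LN arrays. The T lineage arrays were the lowest 2 of 8, and the LN genotypes overlapped. Zbtb7b fell by 0.38 in T lineage against wildtype LN cells (SE 0.09, 1.30-fold, limma adjusted p = 0.0133), a call that was lost without T lineage array 2 (-0.32, limma adjusted p = 0.103), where again the LN arrays alone give the spread. Against deficient LN cells the difference was -0.28 (SE 0.09, limma adjusted p = 0.0578), and it passed without deficient array 1 (-0.35, limma adjusted p = 0.0265).

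The 3 factors of mature innate lymphoid branches stayed at nearly the same value in all groups. Rora encodes the nuclear receptor of type 2 innate lymphoid cells and of the circadian clock, and lies at chr9:68653404-69388246. Its arrays ranged over 6.57 to 6.61 in T lineage, 6.43 to 6.58 in deficient LN and 6.36 to 6.63 in wildtype LN cells. T lineage minus wildtype LN cells was 0.07, with a 95% confidence interval of -0.14 to 0.28 (limma adjusted p = 0.677).

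Tbx21 encodes T-bet, the T-box factor of NK cells and of interferon gamma production, and lies at chr11:97098007-97115331. Its arrays ranged over 6.49 to 6.60 in T lineage, 6.43 to 6.61 in deficient LN and 6.52 to 6.62 in wildtype LN cells. T lineage minus wildtype LN cells was -0.0021 (interval -0.19 to 0.19). Eomes encodes the second T-box factor of NK cells and lies at chr9:118478186-118486132. Its arrays ranged over 5.65 to 5.67 in T lineage, 5.51 to 5.68 in deficient LN and 5.63 to 5.83 in wildtype LN cells, with T lineage minus wildtype LN cells at -0.10 (interval -0.29 to 0.10). For all 3 genes the groups overlapped, and the intervals leave out changes of the size seen for Zbtb16 and Tox. All 3 were among the 40% of probesets with the lowest mean over the arrays, and whether their transcripts were above background was not measured here.

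In counts, 4 of 7 factors were called between T lineage and wildtype LN cells, 2 higher and 2 lower. Over all probesets 18.0% were called in this comparison, 7.66% higher and 10.4% lower. Arrays of the 2 groups did not overlap for 4 of the 7, against 47.8% of all probesets. The median difference was -0.0021 over the 7 factors and 0.04 over all probesets, and the median size, regardless of sign, was 0.38 and 0.13. Between T lineage and deficient LN cells 2 of 7 were called, both higher, against 14.1% of all probesets (5.98% higher and 8.16% lower). Their arrays did not overlap for 4 of the 7 factors, against 40.7% of all probesets.

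Between deficient and wildtype LN cells limma called 0 of 7 factors, and it called 0.00459% of all probesets, a single one. That probeset was of Il2ra, a gene of the sort gate itself, which fell by 1.02 in deficient LN cells (limma adjusted p = 0.0283). At an unadjusted p under 0.05 there were 2 of 7 factors (Nfil3 and Eomes), against 4.92% of all probesets. Nfil3 had the 115th largest difference in size of the 21789 probesets, and it was the 1 factor whose arrays did not overlap between the genotypes, as for 9.95% of all probesets. Its 95% confidence interval was -0.63 to -0.24, and that of Eomes (-0.18) was -0.36 to -0.01. Tox differed by -0.20 with an interval of -0.54 to 0.13, and Zbtb16 by -0.12 with -0.39 to 0.16. Rora (-0.03), Tbx21 (-0.05) and Zbtb7b (-0.09) had intervals that reached no further than -0.27. All 7 differences were below 0, as for 53.5% of all probesets, but that of Zbtb16 was 0.04 without deficient array 1 and that of Rora 0.03 without wildtype LN array 3. The 15 stromal markers are genes that the feeder cells could contribute. Their mean was 6.53 to 6.67 in deficient LN arrays and 6.45 to 6.48 in wildtype LN arrays. Between these groups limma called 0 of the 15. At an unadjusted p under 0.05 there were 4, all higher in deficient LN cells, beside 4.92% of all probesets. The median difference of the list was 0.0038. In T lineage against deficient LN cells limma called 4 of the 15, all lower, beside 8.16% of all probesets called lower. Against wildtype LN cells it called 1, also lower, beside 10.4%. The part of feeder cells in the differences of the factors was not tested.

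**Figure D3:**
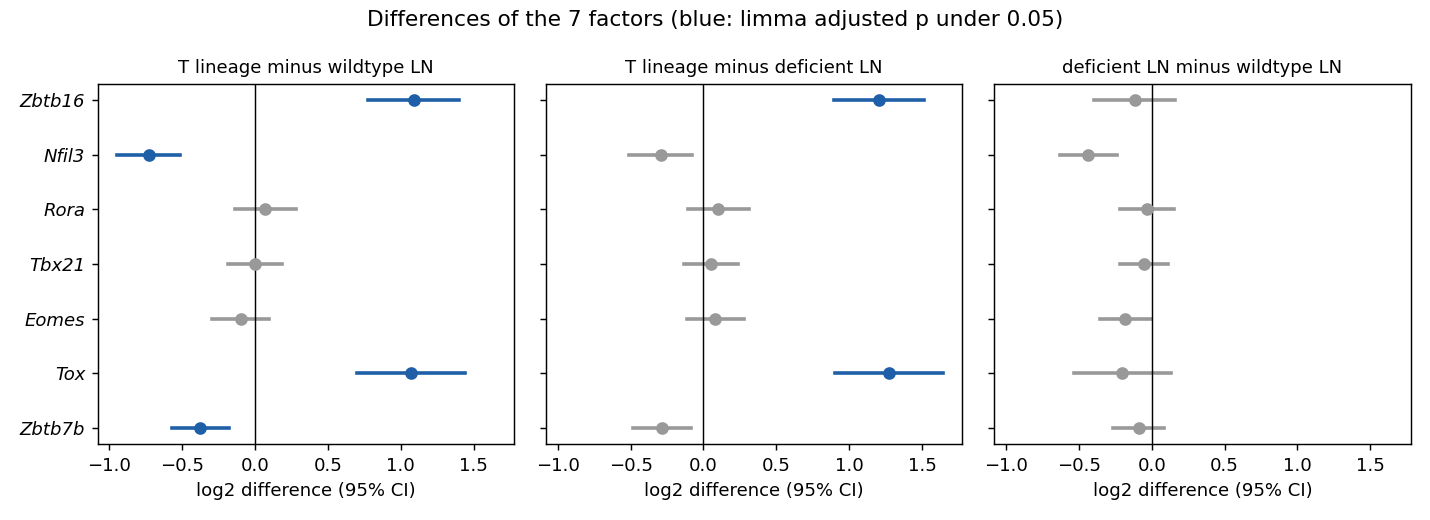
Log2 difference of each factor (horizontal axis, points) with its 95% confidence interval from limma (lines) for T lineage minus wildtype LN, T lineage minus deficient LN and deficient minus wildtype LN cells. Blue marks an adjusted p under 0.05: 4 factors in the left panel, 2 in the middle panel and 0 in the right panel.

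The other regulators of the innate lymphoid programme moved in both directions in T lineage cells. Of 22 measured, 9 rose, 5 fell and 8 did not pass against wildtype LN cells, with a median of 0.07. Over all probesets 7.66% rose and 10.4% fell in this comparison. Gata3, which acts in T cells and in type 2 innate lymphoid cells, rose by 1.68 (limma adjusted p = 2.26e-05), and Ets1, needed for NK cells in mice, rose by 1.29 (0.000149). Id2, the E protein inhibitor that all innate lymphoid lineages use, fell by 2.37 (9.45e-07), and Zeb2, a factor of late NK maturation, fell by 1.81 (1.79e-05). Id2 averaged 8.08 in T lineage, 10.44 in deficient LN and 10.46 in wildtype LN cells.

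Of 27 receptors of innate lymphoid cells, 6 rose, 10 fell and 11 did not pass, with a median of -0.0028. The shares over all probesets were 7.66% higher and 10.4% lower. Klrd1 (CD94), an NK receptor chain, fell by 5.71 (limma adjusted p = 2.4e-09), Klrk1 (NKG2D) fell by 3.93 (5.88e-08) and Itga1, an integrin chain of tissue-resident cells, fell by 2.00 (8.68e-06). Tnfsf10, the death ligand TRAIL, rose by 2.21 (7.94e-06). Klrb1c (NK1.1) averaged 4.32, 4.36 and 4.33 in T lineage, deficient LN and wildtype LN cells, and Ncr1 (NKp46) 4.89, 4.92 and 4.95, and neither of these defining NK receptors passed in any comparison.

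Of 20 effector genes, 5 rose, 1 fell and 14 did not pass, with a median of 0.08. This stands beside 7.66% of all probesets called higher and 10.4% called lower. Gzma and Gzmb, serine proteases of killer cell granules, rose by 3.24 (limma adjusted p = 3.03e-08) and 2.33 (1.61e-07), and Nkg7, a granule membrane protein, rose by 1.06 (7.6e-05). The chemokine Ccl3 fell by 2.17 (2.73e-06). Prf1, the pore-forming perforin, differed by 0.16 (0.344) and Ifng, a target of T-bet, by 0.11 (0.46).

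**Figure D4:**
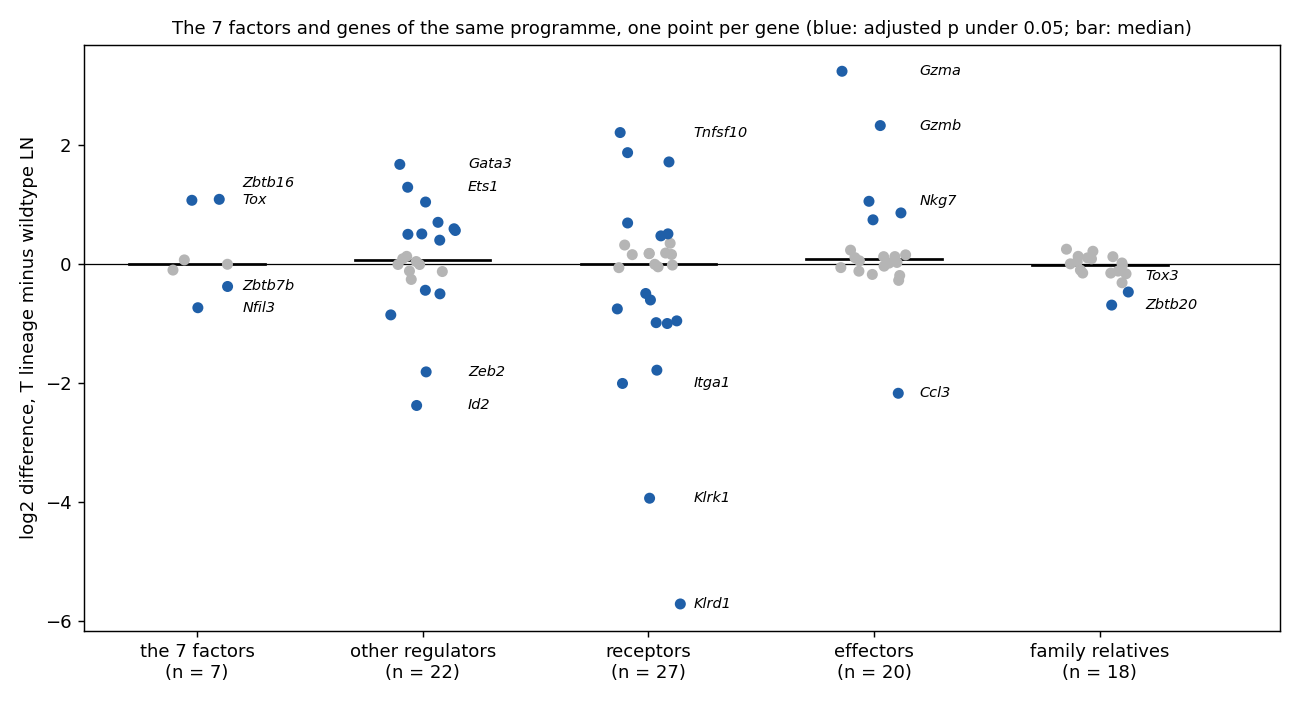
Log2 difference between T lineage and wildtype LN cells (vertical axis) for the 7 factors and for 4 lists of related genes, with 1 point per gene, bars at the median and blue for an adjusted p under 0.05. Up to 4 called genes of largest change are named in each list, and the medians all lie within 0.1 of 0.

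Of 18 relatives of the factors by family, 0 rose and 2 fell in T lineage against wildtype LN cells, a share no higher than the 18.0% called over all probesets. These were Zbtb20, a BTB zinc finger factor (-0.69, limma adjusted p = 0.000696), and Tox3, an HMG box relative of Tox (-0.47, 0.00492). Tox2 differed by 0.13 (0.447) and Tox4 by -0.15 (0.337), beside the rise of Tox by 1.07. Of 15 genes of the circadian clock, which Rora and Nfil3 regulate, 2 rose and 1 fell, which is near the 18.0% called over all probesets and so no result about the clock as a group. The probeset matched by name to Ciart, a clock repressor, rose by 0.76 (limma adjusted p = 0.0104), a match not checked by position. Bhlhe40 rose by 0.70 (limma adjusted p = 0.0117), and Clock, a core activator, fell by 0.88 (0.000195). Of 10 genes of the choice between CD4 and CD8 lineages, 4 rose and 1 fell, beside the 18.0% called over all probesets. Tox and Gata3 are in this list too. Cd8a, which ThPOK represses in maturing CD4 cells, fell by 1.03 (limma adjusted p = 0.000208), while Cd8b1 differed by -0.04 (0.808) and Cd4 by 0.01 (0.944). Patz1 (MAZR), a repressor of Zbtb7b in CD8 cells, rose by 0.76 (limma adjusted p = 0.000434) and Runx3, which opposes ThPOK, by 0.57 (0.00692).

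Between deficient and wildtype LN cells limma called 0 of 22 regulators, 0 of 27 receptors, 0 of 20 effectors, 0 of 18 relatives, 0 of 15 clock genes and 0 of 10 CD4 and CD8 lineage genes. At an unadjusted p under 0.05 there were 2, 3, 3, 1, 1 and 0 of these, beside 4.92% of all probesets. The largest differences were -0.35 for Irf4 among the regulators (limma adjusted p = 0.65), -0.47 for Klrd1 among the receptors (0.491) and 0.63 for Fasl among the effectors (0.831).

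The genes whose profiles over the 8 arrays were nearest to those of the factors were sought among 1203 probesets with a range of at least 1 log2 unit, by the root mean square difference of profiles centred on their own mean. Zbtb16 and Tox alone reached that range themselves. Nearest to Zbtb16 were Lratd2 (root mean square difference 0.10), Sema3c, a secreted semaphorin (0.12), and Itga2b, an integrin chain of platelets and early progenitors (0.12). Nearest to Tox were Hemgn, a nuclear protein of blood progenitors (0.13), Lratd2 (0.14) and Mycn, a Myc family factor (0.15). Lratd2 averaged 8.89 in T lineage, 7.66 in deficient LN and 7.74 in wildtype LN cells. Points of 1 group share their gate and genotype, so these likenesses rest on 3 group levels and the spread within them.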

How the data were processed

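Whole-transcript amplification from 10 ng of RNA preceded biotin labelling, per the labels' protocols. The deposited values are log2 values per probeset, made by the authors with RMA in Partek 6.5 per the submitters' processing notes. The log2 scale was read from the values, and neither scan dates nor further options are stated there. Of 35399 probesets, 11989 without a gene and 1621 with several genes were left out.

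Differences were fitted with lmFit and eBayes of limma 3.58.1 (R 4.3.3, two-sided) over all 8 arrays as 3 groups with 5 residual degrees of freedom, and the fit was tested on simulated data. Replicates are labelled biological; the LN arrays are of separate mice. Precision is limited by how few arrays there are. The factors, lists and tests were chosen with earlier results of these data known. All 7 factors are named. Lists name up to 4 called genes of largest change, or up to 2 where none is called. Other named genes (Prf1, Ifng, Klrb1c, Ncr1, Tox2, Tox4, Cd4, Cd8b1, Runx3, Thy1 and Il2ra) were chosen after their values were seen. The alternatives were 16 other settings. A gene on several lists counts in each.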

Additional observations from a re-analysis of the deposited data

How the results depend on the processing

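The counts of called factors were recomputed under 16 alternatives. Between deficient and wildtype LN cells 0 of 7 were called under each. Between T lineage and wildtype LN cells 4 were called under each except without T lineage array 2, which gave 3. Between T lineage and deficient LN cells 2 or 3 were called. Zbtb16, Tox and Nfil3 kept their calls against wildtype LN cells under all 16, over differences of 1.03 to 1.14, 1.01 to 1.19 and -0.87 to -0.59, and Zbtb16 and Tox also against deficient LN cells. The differences of Nfil3 between the LN genotypes lay between -0.49 and -0.40 with adjusted p from 0.151 to 1. Without the dimmest 40% of probesets Rora, Tbx21 and Eomes were not tested. Each factor has 1 probeset, so the choice of probeset by smallest p changed nothing.

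The replicate numbers of the labels were not used to pair the arrays in the main fit. Deviations of same-numbered arrays from their group means correlated between -0.247 and 0.158, and not every array correlated best with an array of its own number. Between wildtype LN and T lineage arrays, same-numbered pairs gave 0.158 and 0.12, and different-numbered pairs -0.158 to 0.024. With 2 T lineage arrays their deviations are opposite by construction, so whether these arrays were paired was not decided. With the replicate block 0, 4 and 3 factors were called in the 3 comparisons, Nfil3 being added between T lineage and deficient LN cells (-0.31, limma adjusted p = 0.0443). The cause was not tested. In that comparison Zbtb7b was also called with array weights (-0.30, 0.0435) and without the dimmest probesets (0.0369).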
